A study of Bos taurus with 3 samples.

Results

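The genes described here carry out mitosis and chromosome segregation in somatic cells, and they were compared between cultured cells of the fetal ovary and fibroblasts of the adult ovary. The 60 genes were chosen by name for their known roles, with earlier results of these data known. Of the 60, 42 had a probe set carrying that single gene symbol in the platform annotation, which named 9155 genes in this way. The other 18 (TTK, DLGAP5, INCENP, CENPE, CENPH, CENPK, CENPL, CENPQ, CENPU, NUF2, SPC25, KIF11, KIF20B, PRC1, ANLN, RACGAP1, SMC2 and PTTG1) were not analysed here. Three-prime expression arrays (Affymetrix GeneChip Bovine Genome Array) were hybridized with RNA from 3 Bos taurus cultures, 1 array per culture. Of these cultures, 2 were polygonal cells named Gonadal Ridge Epithelial-Like (GREL) cells, which were grown from collagenase-dispersed fetal ovaries and are described as clonally enriched isolates. The labels give 130 days of gestation for both, while the methods give a slightly lower age for isolate 1. The third culture held fibroblastic cells that had been isolated from adult medullar stroma (labelled as over 1 year), without a replicate. The labels name no treatment beyond culture, all cells were grown in the same medium with fetal calf serum, and the labels give the same target confluence for all of them. Passage number, growth rate and the share of cells in each phase of the cycle were not given in the sources used here. Fetal against adult origin and GREL against fibroblast identity cannot be told apart in this design.

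During mitosis, condensin compacts the chromosomes, kinetochores assembled on the centromeres attach them to spindle microtubules, and a checkpoint delays anaphase until every kinetochore is attached. The anaphase-promoting complex with its activator CDC20 then marks securin and the B-type cyclins for destruction, which frees separase to cut cohesin, and the cell divides at the central spindle. Transcripts of many of these proteins accumulate in late S, G2 and M phase and are scarce in resting cells, so in a culture their level depends on how many cells are dividing as well as on the amount in each cell. In RNA from whole cultures, as here, more dividing cells and more RNA per dividing cell cannot be told apart.

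In the GREL isolates the mitosis genes were higher than in the fibroblasts across nearly every class of the machinery. Of the 42 genes, 23 were over 3-fold higher in both isolates (54.8%), against 2.38% of all 9155 genes, and 0 were over 3-fold lower in both, against 2.38% of all genes. By any amount, so that the isolates and the fibroblasts did not overlap, 39 were higher (41.6% of all genes were) and 1, CENPA, was lower (33.5% of all genes were). The median log2 difference (average of the isolates minus fibroblasts) was 1.98, which is 3.93-fold, with an interquartile range from 1.43 to 2.50. Over all genes the median was 0.05, with an interquartile range from -0.30 to 0.45. The values are log2 intensities rounded by the authors to steps of 0.1, each gene is read at its probe set of highest mean, and members of a list are not replicates of a condition.

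No mitosis gene passed limma, the linear model fitted over all 24016 probe sets, at a Benjamini-Hochberg adjusted p under 0.05, and 0% of all probe sets did. Adjusted p-values of the 42 genes ran from 0.195 to 0.792. At an unadjusted p under 0.05 limma gave 7 of the 42 higher (MAD2L1, CENPF, ESPL1, BUB1, PLK4, BUB3 and SMC4; 9.80% of all probe sets were higher at this level) and 1 lower, CENPA (11.1% of all probe sets were lower). The methods' one-way ANOVA, which gives no p for CENPA because its isolates are equal, gave 0 of the other 41 genes even without adjustment. The spread in these tests comes from the 2 isolates alone, with 1 residual degree of freedom, and the same variance was taken for the fibroblast culture. In the mitosis genes the isolates lay a median of 0.70 apart on the log2 scale, against 0.20 over all genes, and the median standard error of the 42 differences was 0.49. In 39 of the 42 genes both isolates were higher by more than the gap between them, against 27.9% of all genes.

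**Figure D1:**
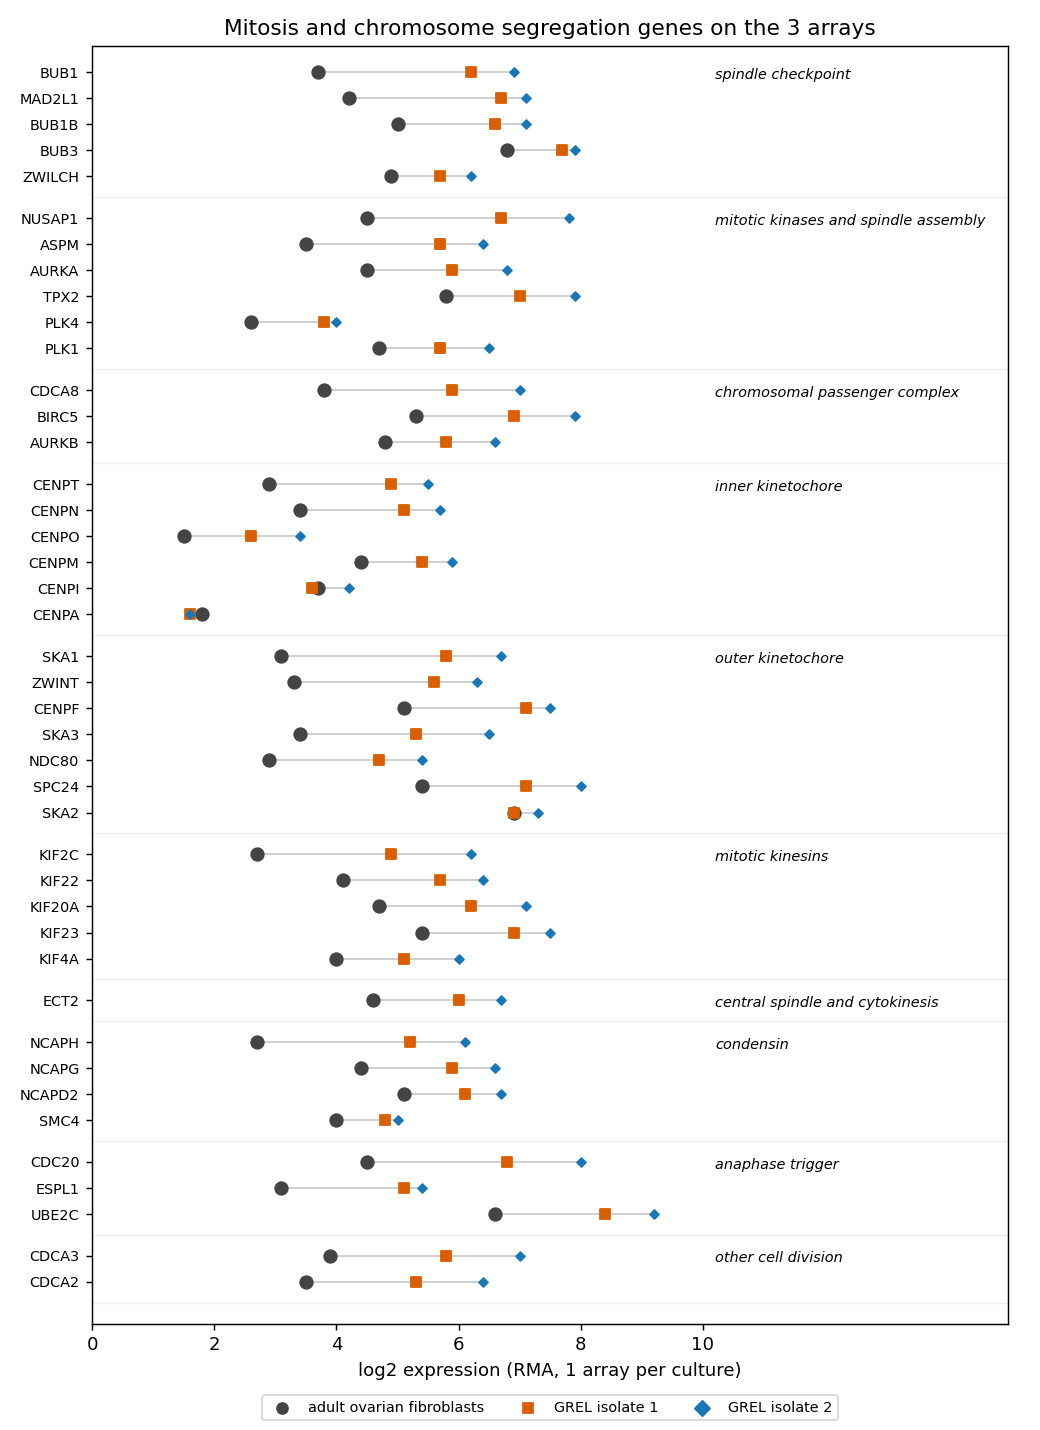
Expression on the log2 scale (horizontal axis, each symbol a single array) of the 42 mitosis and chromosome segregation genes in adult ovarian fibroblasts (large circles), GREL isolate 1 (squares) and GREL isolate 2 (small diamonds), in role classes named at the right and ordered within each by the smaller difference. Isolate 2 lies to the right of isolate 1 in 41 genes, and symbols overlie each other where values are equal, as for SKA2 (fibroblasts and isolate 1) and CENPA (both isolates).

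The spindle assembly checkpoint holds cells in metaphase until all chromosomes are attached. BUB1, a kinase that recruits checkpoint proteins to the kinetochore, read a log2 value of 3.7 in fibroblasts, 6.2 in isolate 1 and 6.9 in isolate 2, which is 5.66-fold and 9.19-fold higher. MAD2L1, the inhibitor that binds CDC20, read 4.2 in fibroblasts, 6.7 in isolate 1 and 7.1 in isolate 2. Its difference of 2.70 had a standard error of 0.28 and an adjusted p = 0.20 in limma. Both genes therefore stood well above the single fibroblast value in each isolate, with isolate 2 the higher. BUB1B, the BubR1 subunit of the mitotic checkpoint complex, read 5.0 in fibroblasts, 6.6 in isolate 1 and 7.1 in isolate 2, a difference of 3.03-fold and 4.29-fold. BUB3, the partner that carries BUB1 and BUB1B to kinetochores, read 6.8, 7.7 and 7.9 in the same order. ZWILCH, a subunit of the complex that brings dynein to kinetochores, read 4.9, 5.7 and 6.2. BUB3 and ZWILCH were thus higher in both isolates but stayed under 3-fold, with BUB3 at 1.87-fold and 2.14-fold and ZWILCH at 1.74-fold and 2.46-fold.

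The chromosomal passenger complex corrects faulty attachments and later directs cytokinesis, and AURKB is its kinase. CDCA8 (borealin), which targets the complex to centromeres, read 3.8 in fibroblasts, 5.9 in isolate 1 and 7.0 in isolate 2, which is 4.29-fold and 9.19-fold. BIRC5 (survivin), which binds borealin, read 5.3, 6.9 and 7.9, which is 3.03-fold and 6.06-fold. AURKB itself read 4.8, 5.8 and 6.6, or 2.00-fold and 3.48-fold, past 3-fold in isolate 2 only. The 3 measured subunits were ordered alike over the cultures, lowest in fibroblasts and highest in isolate 2, and their median difference was 2.10.

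Among 6 measured kinases and spindle assembly factors, all were higher in both isolates and 2 were over 3-fold higher in both. NUSAP1, which bundles microtubules near chromosomes, read 4.5 in fibroblasts, 6.7 in isolate 1 and 7.8 in isolate 2, or 4.59-fold and 9.85-fold. ASPM, a spindle pole protein, read 3.5, 5.7 and 6.4, or 4.59-fold and 7.46-fold. These were the pair past 3-fold in each isolate. AURKA, the kinase of centrosomes and spindle poles, read 4.5, 5.9 and 6.8, which is 2.64-fold and 4.92-fold. PLK1, which acts from mitotic entry to cytokinesis, read 4.7, 5.7 and 6.5, or 2.00-fold and 3.48-fold, the smallest difference of the class in isolate 1. TPX2, the activator of AURKA, and PLK4, the kinase that starts centriole duplication, had mean differences of 1.65 and 1.30, the latter the lowest mean of the class. PLK4 differed by only 0.20 between the isolates, against 0.90 for TPX2.

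The outer kinetochore is the part that grips microtubules, and 6 of its 7 measured genes were over 3-fold higher in both isolates. SKA1, of the complex that follows shortening microtubule ends, read 3.1 in fibroblasts, 5.8 in isolate 1 and 6.7 in isolate 2. At 6.5-fold and 12.1-fold it had the largest difference of all 42 mitosis genes, from a dim fibroblast value, so its size and its place among the genes are uncertain. Its standard error was 0.63 and its adjusted p = 0.261 in limma. Both isolates thus stood far above the fibroblasts in SKA1, with isolate 2 the higher. ZWINT, which anchors the dynein-recruiting complex, read 3.3, 5.6 and 6.3, or 4.92-fold and 8.0-fold. CENPF, a large protein of the kinetochore's outer layer, read 5.1, 7.1 and 7.5, with a standard error of 0.28 on its difference of 2.20 and an adjusted p = 0.20 in limma. The remaining genes past 3-fold fell in a narrow band in isolate 1. SKA3, NDC80 and SPC24 were between 3.25-fold and 3.73-fold higher in isolate 1 and between 5.66-fold and 8.57-fold higher in isolate 2. Of these NDC80 had a dim fibroblast value, 2.9. SKA2, although a subunit of the same complex as SKA1 and SKA3, read 6.9 in fibroblasts, 6.9 in isolate 1 and 7.3 in isolate 2, so isolate 1 equalled the fibroblasts.

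The inner kinetochore is built on CENPA, the centromeric form of histone H3, by a constitutive network of proteins, and the mean differences of its 6 measured genes ran from -0.20 to 2.30. CENPT, which links centromeric DNA to the NDC80 complex, read 2.9 in fibroblasts, 4.9 in isolate 1 and 5.5 in isolate 2. Its folds of 4.0 and 6.06 start from a dim fibroblast value, so their size is uncertain. CENPN, which recognises CENPA nucleosomes, read 3.4, 5.1 and 5.7, or 3.25-fold and 4.92-fold. These were the inner kinetochore genes past 3-fold in both isolates. CENPO read 1.5, 2.6 and 3.4, and its other probe set ran the opposite way, at 2.1, 1.6 and 1.9. CENPM was at 2.00-fold and 2.83-fold, but its other probe set was nearly flat, at 3.0, 3.2 and 3.1. CENPI was 0.10 lower in isolate 1 and 0.50 higher in isolate 2 than in fibroblasts. CENPA read 1.8 in fibroblasts and 1.6 in both isolates. Its single probe set was therefore near the bottom of the scale in every culture, below the 2.10 that was the median of 47 genes of other organs in the fibroblasts, and the isolates rounded to the same value, which makes its spread too small. The array thus gives no clear reading of CENPA, and the small negative difference rests on a dim signal.

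Kinesins are motors that move or shorten microtubules, and all 5 that were measured were higher in both isolates. KIF2C, a microtubule depolymerase that frees wrong attachments, read 2.7 in fibroblasts, 4.9 in isolate 1 and 6.2 in isolate 2. Its 4.59-fold and 11.3-fold differences start from a dim fibroblast value, so their size is uncertain. The gap of 1.30 between the isolates in KIF2C was the widest of the 42 genes. KIF22, which pushes chromosome arms toward the equator, read 4.1, 5.7 and 6.4, or 3.03-fold and 4.92-fold. These were the kinesins past 3-fold in both isolates. KIF20A, a motor of the central spindle, read 4.7, 6.2 and 7.1, or 2.83-fold and 5.28-fold. KIF23, the motor subunit of centralspindlin, read 5.4, 6.9 and 7.5, or 2.83-fold and 4.29-fold. KIF4A, which limits central spindle length, read 4.0, 5.1 and 6.0, or 2.14-fold and 4.0-fold. The last 3, which work in the central spindle, passed 3-fold in isolate 2 and not in isolate 1. ECT2, the exchange factor that activates RhoA for the cleavage furrow and the only measured gene of the cytokinesis class, did likewise, at 4.6, 6.0 and 6.7.

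Condensin was read by 4 genes, all higher in both isolates. NCAPH, the kleisin that closes the condensin I ring, read 2.7 in fibroblasts, 5.2 in isolate 1 and 6.1 in isolate 2. Its folds of 5.66 and 10.6 start from a dim fibroblast value, so their size is uncertain. NCAPG and NCAPD2, the HEAT-repeat subunits of condensin I, read 4.4, 5.9 and 6.6 and 5.1, 6.1 and 6.7. SMC4, an ATPase core subunit shared by condensins I and II, read 4.0, 4.8 and 5.0, or 1.74-fold and 2.00-fold. NCAPH was thus the condensin gene over 3-fold higher in both isolates, and SMC4 had the smallest difference, 0.90. Outside the 42 genes, the 3 condensin II subunits that were measured, NCAPD3, NCAPG2 and NCAPH2, had mean differences of 1.60, 2.00 and 1.45.

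The genes that trigger anaphase were all over 3-fold higher in both isolates. CDC20, the mitotic activator of the anaphase-promoting complex, read 4.5 in fibroblasts, 6.8 in isolate 1 and 8.0 in isolate 2, or 4.92-fold and 11.3-fold. UBE2C, the ubiquitin-conjugating enzyme that starts chains for the complex, read 6.6, 8.4 and 9.2, or 3.48-fold and 6.06-fold. ESPL1 (separase), the protease that cuts cohesin, read 3.1, 5.1 and 5.4, with the lowest adjusted p of the 42 genes, 0.195 in limma, on a difference of 2.15 with a standard error of 0.21. The cell division genes CDCA2, a targeting subunit of protein phosphatase 1, and CDCA3 read 3.5, 5.3 and 6.4 and 3.9, 5.8 and 7.0. Each of these 5 genes was lowest in fibroblasts and highest in isolate 2.

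The isolates themselves differed in this set. Isolate 2 was above isolate 1 in 41 of the 42 genes (97.6%), equal in CENPA and below in 0, while over all genes 51.4% were higher in isolate 2. The median signed difference, isolate 2 minus isolate 1, was 0.70 on the log2 scale, against 0.10 over all genes, and the median fold over the fibroblasts was 3.03 in isolate 1 and 4.92 in isolate 2. In isolate 2, 34 genes exceeded 3-fold (4.71% of all genes did), 11 of them only there, among them AURKA, AURKB, PLK1, TPX2 and ECT2. Each isolate is 1 culture on 1 array, so the gap has no replicate of its own, and both differences share the same fibroblast array. Stromal cell markers ran in the opposite order: 10 of 12 were lower in isolate 2 than in isolate 1, as were 3173 of all 9155 genes. Against the fibroblasts 10 of 12 were lower in both isolates (33.5% of all genes were). The exceptions there were THY1, 0.60 higher in isolate 1, and POSTN, 0.90 higher in isolate 2. Their intensities, summed on the linear scale, were 0.631 of the fibroblast sum in isolate 1 and 0.361 in isolate 2, while the sum of the 42 mitosis genes was 2.78 and 4.68 times that of the fibroblasts. The part of the stromal markers' shift in the mitosis result was not tested.

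**Figure D2:**
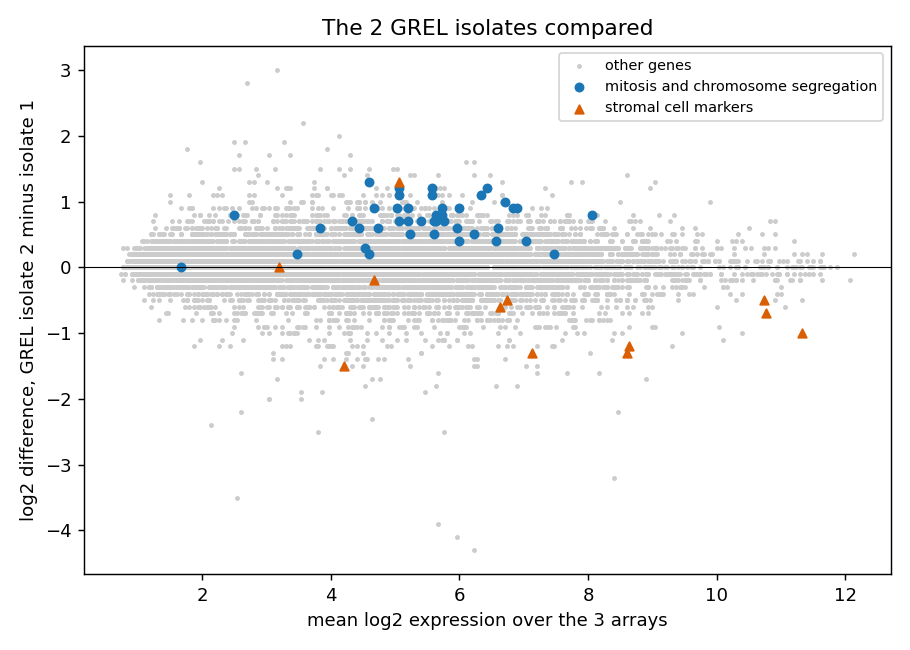
Log2 difference of GREL isolate 2 minus isolate 1 (vertical axis) against the mean log2 expression over the 3 arrays (horizontal axis) for the 42 mitosis and chromosome segregation genes (circles), 12 stromal cell markers (triangles) and all other named genes (grey points). The mitosis genes lie at or above 0, with a median of 0.70, and 10 of the 12 stromal markers lie below 0.

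The remaining genes of the division programme were read from lists of the same origin. Of 9 genes of mitotic entry, all were higher in both isolates, and 4 of them over 3-fold, against 41.6% and 2.38% of all genes. CCNB1, a B-type cyclin of mitosis, read 3.8 in fibroblasts, 6.5 in isolate 1 and 7.3 in isolate 2. CCNB2 read 4.7, 6.9 and 7.5, and CCNA2 read 3.1, 5.1 and 6.2. Their kinase CDK1 read 4.6, 6.6 and 7.3, so each of the 4 had the order seen in the mitosis genes. CDC25C, a phosphatase that activates CDK1, had the smallest difference at 2.8, 2.9 and 3.7, followed by the inhibitory kinase WEE1 at 4.2, 5.4 and 5.4. Of 27 S phase genes, 27 were higher in both isolates and 13 over 3-fold, with a median of 1.90. UHRF1, which maintains DNA methylation at replication, had the largest difference, 3.50, and RRM2, of ribonucleotide reductase, 2.75. The smallest, 0.60 and 0.65, were those of POLA1 and PRIM1, of the primase complex, with PRIM1 dim at 1.8, 2.2 and 2.7. PCNA, the sliding clamp, was at 2.35. The median difference of the mitosis genes, 1.98, thus lay between those of S phase and mitotic entry, the latter being 2.15. In isolate 2, 27 of 27 S phase genes and 8 of 9 genes of mitotic entry exceeded isolate 1, against 51.4% of all genes.

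Of 32 further mitosis genes outside the 42, 28 were higher in both isolates (41.6% of all genes were), 5 of them over 3-fold (2.38%). Of these 32 genes 3 were lower in both (33.5% of all genes), and their median was 1.40. TACC3, a spindle microtubule protein, and OIP5, which loads CENPA, had the largest differences, 2.65 and 2.55. The lowest were NUMA1, which organises spindle poles and the nuclear matrix, at 5.8, 5.1 and 5.3, and KIF18A, at 1.5, 1.1 and 1.1. KIF18A was dim, below the median of the genes of other organs on each array (2.1, 1.9 and 2.0), so its difference gives no clear reading. Of 12 genes of the anaphase-promoting complex and its regulators, 1 was over 3-fold higher in both isolates and the median difference was 0.40. That gene was the inhibitor FBXO5, at 3.6, 5.3 and 5.9, followed by CDC23, with a mean difference of 1.65, while ANAPC5 and ANAPC11 were at -0.20 and -0.15. The activator CDC20 and the enzyme UBE2C thus read 2.90 and 2.20 higher, on the log2 scale, beside 10 measured subunits of the complex whose median difference was 0.33. Of 6 genes of cohesin and its regulators, 5 were higher in both and 0 over 3-fold, with a median of 0.73. SGO1 and SGO2, the shugoshins that protect cohesin at centromeres, had the largest differences, 1.85 and 1.00. SMC1A and NIPBL had the lowest, 0.40 and -0.30, with SMC1A dim at 1.4, 1.9 and 1.7.

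**Figure D3:**
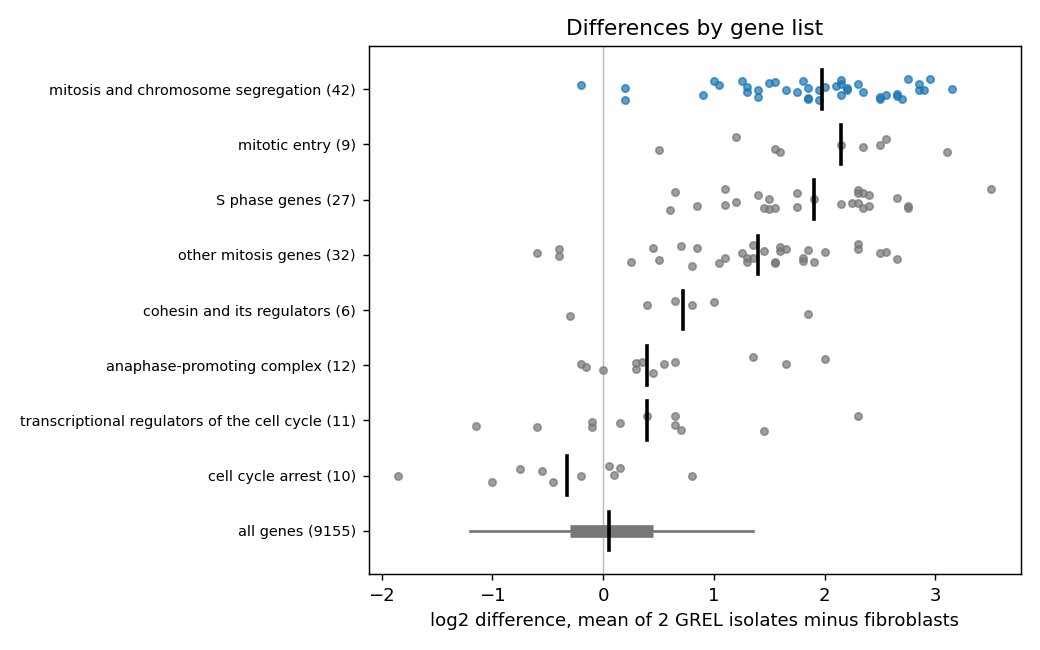
Average of both GREL isolates minus fibroblasts on the log2 scale (horizontal axis) for every gene (points, spread vertically for legibility) of the mitosis set and of 7 other lists, with gene numbers in brackets and medians as black bars. For all genes the thick bar spans the quartiles and the thin line the 5th to 95th percentiles. Medians are 1.98 for the mitosis set, 0.40 for the anaphase-promoting complex and -0.33 for cell cycle arrest.

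Among 11 transcriptional regulators of the cell cycle the median difference was 0.40, and 1 was over 3-fold higher in both isolates. This was MYBL2 (B-Myb), which activates mitotic genes, at 3.6 in fibroblasts, 5.5 in isolate 1 and 6.3 in isolate 2. E2F6 had a mean difference of 1.45 and E2F1 read 1.9, 2.1 and 3.0. RB1, the retinoblastoma protein that holds E2F factors inactive, read 6.1, 5.1 and 4.8, and LIN37, of the DREAM repressor complex, 2.7, 2.2 and 2.0. FOXM1, a further activator of mitotic genes, and the proliferation markers MKI67 and TOP2A were not analysed here, for want of a named probe set. Of 10 genes of cell cycle arrest, 6 were lower in both isolates (33.5% of all genes were) and 3 were higher in both (41.6%). Of these 10 genes 0 passed 3-fold in either direction in both. CDKN1A (p21), which inhibits cyclin-dependent kinases, read 8.6, 7.2 and 6.3, the reverse order of the mitosis genes. Its difference of -1.85 had a standard error of 0.63 and an adjusted p = 0.327 in limma. BTG1, an antiproliferative gene, had a mean difference of -1.0, and GADD45B and GADD45A were at 0.80 and 0.15. CDKN1B was not analysed here.

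Other cells of the ovary were checked by their markers. Germ cells could be checked only in part, as 7 of 13 listed germ cell genes and 2 of 14 meiosis genes were measured. DAZL and VASA, which the paper stained, were not among the 7. Of these 7 germ cell genes and 2 meiosis genes, 0 were over 3-fold higher in both isolates. All 9 of these read a log2 value of 3 or less in both isolates. KIT, a receptor also found on other cells, was higher in fibroblasts, at 5.7 against 1.5 and 2.7. All 7 endothelial and all 7 blood cell genes read 3 or less on every array, where the array medians were 2.9, 3.0 and 2.9. Of 10 granulosa cell genes, 0 were over 3-fold apart in both isolates, and 6 read 3 or less on each array. The summed intensities of the 10 were 0.643 and 0.632 of the fibroblast sum. FST, the brightest at 9.6, 8.6 and 8.8, weighed most in these sums. FOXL2, a transcription factor of granulosa cells, read below the array median on every array, at 1.8, 1.9 and 2.0. In tissue sections the paper found FOXL2 protein in GREL cells too, so this reading cannot tell GREL and granulosa cells apart. It also reports that those FOXL2-positive cells lacked Ki67 protein and appeared not to divide, while other cells of the fetal ovary carried Ki67. That is protein in tissue, and its relation to the RNA of these cultures, where FOXL2 read dim, was not tested. Of 8 genes of simple epithelium, 4 were over 3-fold higher in both isolates (2.38% of all genes were), with sums of 3.55 and 4.46 times that of the fibroblasts. KRT18 (10.4, 11.4 and 11.8) and KRT19 (7.1, 11.3 and 11.6) were the brightest and weighed most in these sums. By any amount 7 of the 8 were higher in both isolates, against 41.6% of all genes. The exception, CDH1, read 3.6, 4.7 and 3.2, and EPCAM read 1.0, 3.9 and 1.5. Of the 12 stromal markers 2, TCF21 and PDGFRA, were over 3-fold lower in both isolates (2.38% of all genes were) and 0 were over 3-fold higher.

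Brightness limits how exactly the differences are known. With no detection calls in the deposited values, a background level was taken from 47 genes of other organs, set at the 95th percentile of their values per array. It was 8.31 in fibroblasts, 8.02 in isolate 1 and 8.03 in isolate 2. Above it lay 0 of the 42 mitosis genes in fibroblasts and 1, UBE2C, in each isolate. Of all 9155 genes, 546, 713 and 735 lay above it on these arrays. POMC, APOA1, PRL and ALB set this strict level, and a value below it does not show that a gene was silent. At the 90th percentile (6.08, 6.20 and 6.32) 3, 12 and 27 of the 42 genes lay above it, against 2454, 2330 and 2304 of all genes. At the median of the 47 genes of other organs the counts were 40, 41 and 41, against 7309, 7540 and 7485 of all genes. Most fibroblast values of the 42 genes thus lay below the 90th percentile level, and the sizes of the folds are uncertain. The median fibroblast value of the 42 genes was 4.15, against 4.5 over all genes, and 7 of the 42 read 3 or less there. Among genes with a mean log2 value of at least 4, 23 of 38 mitosis genes (60.5%) were over 3-fold higher in both isolates, against 3.31% of 5321 genes. That mean includes the isolates, so a gene dim in fibroblasts can pass through them, as NCAPH did (2.7, 5.2 and 6.1). The share therefore cannot show how far dim fibroblast readings shape the folds.

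Of the 42 genes, 20 were read by more than 1 probe set. Of their 22 further probe sets, 18 were higher in both isolates than in fibroblasts, 3 were lower in both and 5 were over 3-fold higher in both, with a median difference of 1.08. A set of 9 read under 3 on all 3 arrays, and the 4 further probe sets with a mean difference below 0 (BUB3, ASPM, CENPO and 1 of SMC4) were all among these 9. Of the brighter further probe sets, those of KIF2C and CDCA8 gave smaller differences, 1.40 against 2.85 and 1.20 against 2.65. Those of NCAPH gave 1.75 and 1.65 against 2.95, and that of CENPM gave 0.15 against 1.25. Among the 9 dim probe sets were those of BUB1, ESPL1 and CENPF, at 0.95 against 2.85, 0.45 against 2.15 and 0.35 against 2.20. The size of the difference thus depended on the probe set in these genes. For AURKA, the other probe set read 2.8 in fibroblasts, 4.6 in isolate 1 and 5.1 in isolate 2, a mean difference of 2.05 against 1.85. For CENPN it read 2.2, 5.0 and 5.3, or 2.95 against 2.00. For SKA3 and KIF20A the probe sets lay within 0.25 of each other.

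**Figure D4:**
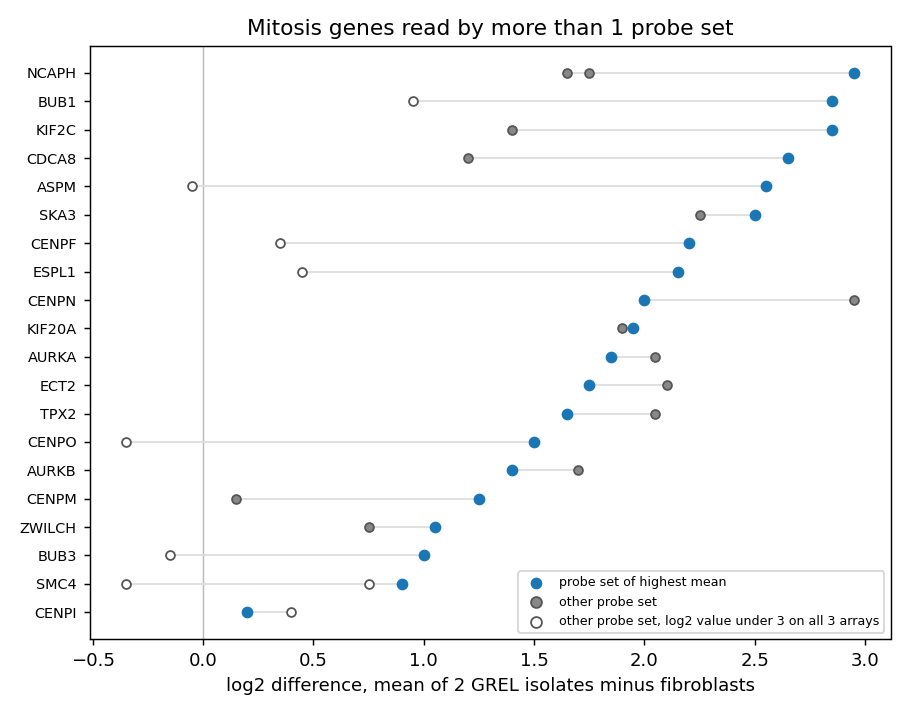
Average of both GREL isolates minus fibroblasts on the log2 scale (horizontal axis) for the 20 mitosis genes with more than 1 probe set, at the probe set of highest mean (blue) and at the others (grey, or white where all 3 arrays read under 3). All points below 0 are white.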

How the data were processed

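RNA from 2 GREL isolates and 1 adult ovarian fibroblast culture was hybridized, 1 array per culture. The authors deposited log2 values made with RMA background subtraction and quantile normalization (Partek 6.5 per the submitters' processing notes), rounded to steps of 0.1. Rounding makes the isolates equal in 3513 of 24016 probe sets. The table holds 24128 probe sets, of which 112 are array controls and were not used. Of the rest 13292 had 1 gene symbol in the platform annotation, 86 had several and 10638 were unnamed. Matching gene identifiers to RefSeq (ARS-UCD2.0) succeeded for 13263 of these and changed 0 symbols. No genome build is named for the array and no sequence table was used, so no coordinates or sequences are given. 0 value columns were unused.

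Differences were fitted with limma 3.58.1 (R 4.3.3; lmFit, eBayes, Benjamini-Hochberg over 24016 probe sets, adjusted p under 0.05) by a script checked on simulated data with known differences. Counting and plotting used Python 3.11.15 (pandas 2.3.3). The mitosis genes and the other lists were chosen with earlier results of these data known. In each role class the 3 genes with the largest difference in the isolate nearer to the fibroblasts and the gene with the smallest were described, and every gene in classes of up to 5; from the division lists the 2 highest and 2 lowest and some fixed regulators; marker lists are given mainly as counts and sums. Isolates are labelled as separate cultures, so the p-values set the difference from the fibroblasts against the spread between 2 cultures. The number of arrays limits the precision. Other settings were fold thresholds of 2 and 5, other probe set rules, median centring, renewed quantile normalization, dim filters, an intensity trend, a robust prior, ANOVA and leaving out either isolate.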

Additional observations from a re-analysis of the deposited data

How the results depend on the processing

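No mitosis gene reached an adjusted p under 0.05 in the limma fits or the ANOVA. CENPA has no p in the ANOVA and was not in the fit above the array median, which left 41 genes in each. The lowest adjusted p was 0.0687, for CENPA, which was lower in the isolates and equal in both, with a robust prior, and among the genes higher in the isolates it was 0.182. That prior gave 571 probe sets higher and 618 lower over the whole array, where the other fits gave 0, and none of the 42 genes, at its probe set of highest mean, was among them. The count over 3-fold higher in both isolates, 23, fell to 4 at a 5-fold threshold, to 1 when a value past the background level (95th percentile) was asked for on at least 1 array and to 16 with the lower level (90th), and it was 19 to 21 under the other probe set rules, median centring and renewed quantile normalization, 32 at 2-fold, and 23 to 34 when an isolate was left out. The limit of a mean of at least 4, which high isolates help a gene to reach, was chosen after the data were seen and left it at 23. The count over 3-fold lower was 0 under each of these. The median difference stayed between 1.60 and 2.30, and the median gap between the isolates between 0.60 and 0.80. Above the background level (95th percentile) lay 0, 1 and 1 of the 42 genes in fibroblasts, isolate 1 and isolate 2. At the 90th percentile 3, 12 and 27 did. Over all 9155 genes the counts were 546, 713 and 735 at the 95th and 2454, 2330 and 2304 at the 90th. Of 208 values of single genes that a setting could change 5 changed sign: with the probe set of lowest mean BUB3 (-0.15), ASPM (-0.05), CENPO (-0.35) and SMC4 (-0.35), and without isolate 2 CENPI (-0.10, and 0.50 without isolate 1). With an isolate left out no residual degree of freedom remained, so these are values with no test. No paired analysis was possible because the fibroblasts are 1 array.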
